A study of Rattus norvegicus with 6 samples.

Results

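The insulin-like growth factor (IGF) system was examined at the level of its secreted and surface components in Suz12-depleted rat intestinal epithelial cells. The components were the ligands Igf1 and Igf2, the receptors Igf1r and Igf2r, and the binding proteins Igfbp2 to Igfbp7. All 10 genes were represented on the arrays, by 23 of the 31042 probe sets tested. All probe sets annotated to exactly 1 of these symbols were taken, and the genes themselves were chosen with earlier results of these data known. ShSuz12 cells were IEC-6 cells infected with a lentivirus that encodes a short hairpin RNA against Suz12, a core subunit of Polycomb repressive complex PRC2, which methylates histone H3 on lysine 27. ShControl cells were IEC-6 cells infected with a lentivirus that encodes a scrambled hairpin. IEC-6 is a non-tumorigenic line from rat small intestine with a crypt-like, undifferentiated phenotype. Both groups were puromycin-selected populations grown in DMEM with fetal bovine serum, and RNA came from 3 independent experiments for each. Each group was 1 infected population with 1 hairpin, so the p-values measure the spread between experiments with the same cells.

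Igf1 and Igf2 are secreted growth factors related to insulin, and both act through Igf1r, a receptor tyrosine kinase that recruits insulin receptor substrates and activates PI3K, Akt and MAPK signaling. Igf2r, also known as the cation-independent mannose 6-phosphate receptor, takes Igf2 to the lysosome and clears it. The binding proteins carry the ligands outside the cell, hold them away from the receptor or deliver them to it, and some act without a ligand. In the intestine, IGF signaling is known as a growth stimulus for the crypt epithelium, and Igf2 is an imprinted gene that is abundant in fetal tissue and low in most adult tissues.

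The arrays gave 1 log2 value for each probe set, after robust multi-array average (RMA) processing by the authors. Levels are also given as percentiles, the mean rank of a probe set among all those tested on the arrays of a group. Log2 values of different probe sets cannot be set against each other. Percentiles are ranks of the same values and carry the same limit. Calls required at least a 2-fold difference and an adjusted p under 0.05 (limma, Benjamini-Hochberg over all probe sets). Suz12 itself was at log2 values of 5.82, 5.77 and 5.91 in ShSuz12 cells, against 8.45, 8.55 and 8.77 in ShControl cells, so the target was lower on every depleted array. Across all probe sets, 3.10% were called higher and 0.396% lower in ShSuz12 cells, and the median log2 fold change was -0.05. The arrays measured the pooled RNA of a population, so more expressing cells and more RNA per cell cannot be told apart.

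Polycomb-repressed genes often have promoters rich in the dinucleotide CG, and the promoters of both genes with a called probe set are shown for this reason, together with that of Igfbp2, which lies beside Igfbp5. RefSeq lists 2 starts for Igf2. Each sequence runs from 250 bases before the annotated start to 50 bases after it on the strand of the gene (RefSeq, GRCr8), with every CG in capitals.
Igf2 first start, chr1:207253931-207254230, minus strand: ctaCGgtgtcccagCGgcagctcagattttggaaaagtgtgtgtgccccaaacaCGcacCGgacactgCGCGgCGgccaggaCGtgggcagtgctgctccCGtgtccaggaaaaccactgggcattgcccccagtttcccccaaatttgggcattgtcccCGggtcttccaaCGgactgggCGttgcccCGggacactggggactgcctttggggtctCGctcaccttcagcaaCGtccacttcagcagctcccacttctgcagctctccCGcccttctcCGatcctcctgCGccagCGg
Igf2 second start, chr1:207250426-207250725, minus strand: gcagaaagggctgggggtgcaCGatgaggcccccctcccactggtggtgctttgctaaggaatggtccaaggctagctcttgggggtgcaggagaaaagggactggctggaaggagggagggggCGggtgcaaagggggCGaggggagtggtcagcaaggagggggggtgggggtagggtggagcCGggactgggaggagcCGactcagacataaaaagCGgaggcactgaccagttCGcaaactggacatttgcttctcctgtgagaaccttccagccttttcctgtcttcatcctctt
Igfbp5, chr9:81914138-81914437, minus strand: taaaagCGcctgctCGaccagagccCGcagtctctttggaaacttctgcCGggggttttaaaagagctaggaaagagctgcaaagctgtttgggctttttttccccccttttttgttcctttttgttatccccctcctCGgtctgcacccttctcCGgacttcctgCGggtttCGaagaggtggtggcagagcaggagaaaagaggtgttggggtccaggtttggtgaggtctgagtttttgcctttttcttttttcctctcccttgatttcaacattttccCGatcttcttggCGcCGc
Igfbp2, chr9:81864561-81864860, plus strand: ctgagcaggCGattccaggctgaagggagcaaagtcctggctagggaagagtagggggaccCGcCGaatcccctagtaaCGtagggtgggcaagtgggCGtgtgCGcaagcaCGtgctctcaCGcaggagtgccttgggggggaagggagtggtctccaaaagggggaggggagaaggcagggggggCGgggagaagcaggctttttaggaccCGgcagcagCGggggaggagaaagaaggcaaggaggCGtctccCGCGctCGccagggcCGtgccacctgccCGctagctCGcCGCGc
The CG count was 19 at the first Igf2 start, 7 at the second, 11 at the Igfbp5 start and 20 at the Igfbp2 start. The median over 33469 promoters of the same length was 7, and 25.7%, 51.4%, 39.0% and 24.2% of them held at least as many as these 4 promoters, in that order. All 10 genes matched, with 11 promoters, and the CG counts ran from 7 for Igf1, the second Igf2 start and Igfbp6 to 50 for Igf1r. The TATA box letters TATAAA, searched on both strands, were found in 1 of the 11 (Igfbp4) and in 14.2% of all promoters. The GC box letters GGGCGG, also on both strands, were found in 6 of the 11, both Igf2 starts and Igfbp2 included but not Igfbp5, and in 33.1% of all promoters. These matches describe the letters of the window and not the chromatin or the start used in IEC-6 cells, which the arrays do not measure.

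Igf2 had the largest change of the system, at 1 of its 4 probe sets. Probe set 1367571_a_at, which targets the Igf2 reference transcript, had log2 values of 9.86, 9.97 and 9.75 in ShSuz12 cells, against 5.80, 5.26 and 5.81 in ShControl cells. All 3 depleted samples were thus far above all 3 control samples, at percentile 91.0 of the array in ShSuz12 cells and 43.2 in ShControl cells. The log2 fold change was 4.23 (standard error 0.15, 95% interval 3.90 to 4.57, adjusted p = 3.97e-07 from limma), or 18.8-fold. The other 3 probe sets, 1371206_a_at, 1388252_at and 1398322_at, share 1 target sequence record that differs from that of the first. Their means were 5.37 ± 0.11, 4.56 ± 0.19 and 4.34 ± 0.08 in ShSuz12 cells (SD, n = 3 each), and 5.39 ± 0.11, 4.66 ± 0.08 and 4.42 ± 0.14 in ShControl cells (SD, n = 3 each). The groups overlapped at each of them, and their log2 fold changes were -0.01, -0.09 and -0.07 (adjusted p = 0.910, 0.511 and 0.530 from limma), with 95% intervals that together ran from -0.32 to 0.17. They lay at percentiles 38.9, 26.6 and 22.7 in ShSuz12 cells and 40.2, 28.9 and 24.4 in ShControl cells. None of these levels was shown to be above background.

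Igf1, the growth hormone-dependent ligand, did not pass the test at any of its 3 probe sets. The brightest, 1370333_a_at, had log2 values of 6.49, 6.57 and 6.78 in ShSuz12 cells, against 6.72, 6.68 and 6.83 in ShControl cells, so the groups overlapped. Its log2 fold change was -0.13 (95% interval -0.32 to 0.06, adjusted p = 0.281 from limma). The others had values of -0.23 and -0.13 (adjusted p = 0.147 and 0.243 from limma), the last from percentile 2.36 in ShSuz12 cells and 4.07 in ShControl cells. When the median of each array was subtracted, the 3 probe sets had log2 fold changes of -0.23, -0.33 and -0.23 and passed at adjusted p = 0.0433, 0.0397 and 0.0450 from limma, still under 2-fold.

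Igfbp5, a binding protein that also attaches to extracellular matrix, had the largest change among the carriers and this change varied among its 5 probe sets. Probe set 1370960_at had log2 values of 7.45, 7.63 and 7.30 in ShSuz12 cells, against 3.88, 3.62 and 4.21 in ShControl cells. The groups were separated by more than 3 units on the log2 scale, at percentile 64.8 in ShSuz12 cells and 13.9 in ShControl cells. The log2 fold change was 3.55 (standard error 0.15, 95% interval 3.21 to 3.90, adjusted p = 1.24e-06 from limma), or 11.7-fold. The ShControl level was near that of the leukocyte gene Ptprc (percentile 13.6 in ShControl cells) and was not shown to be above background, so this fold may be a lower bound. At 3 other probe sets Igfbp5 was higher by less than 2-fold: 1387348_at rose by 0.97, 1396152_s_at by 0.82 and 1397830_at by 0.71 (adjusted p = 3.20e-05, 1.73e-04 and 3.33e-04 from limma), and the groups did not overlap at any of these. The last 2 of these share 1 target sequence record. Probe set 1396152_s_at had values of 4.77, 4.58 and 4.47 in ShSuz12 cells, against 3.74, 3.75 and 3.87 in ShControl cells. Probe set 1397830_at had values of 5.60, 5.68 and 5.61 in ShSuz12 cells, against 5.01, 4.73 and 5.01 in ShControl cells. For 1387348_at the values were 6.50, 6.69 and 6.59 in ShSuz12 cells, against 5.66, 5.69 and 5.51 in ShControl cells, and its change reached 2-fold when ShControl replicate 2 or ShSuz12 replicate 1 was left out (log2 fold change up to 1.02). The remaining probe set, 1387347_at, which targets the Igfbp5 reference transcript, had values of 6.08, 5.90 and 5.98 in ShSuz12 cells, against 5.96, 5.99 and 5.88 in ShControl cells. The groups overlapped there, with a log2 fold change of 0.04 (95% interval -0.11 to 0.19, adjusted p = 0.651 from limma).

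Other binding proteins changed by less than 2-fold. Igfbp4, a mostly inhibitory carrier, had log2 values of 8.10, 8.15 and 7.97 in ShSuz12 cells, against 7.60, 7.60 and 7.51 in ShControl cells, and rose by 0.50 (standard error 0.06, adjusted p = 5.42e-04 from limma). Igfbp7, a relative with low affinity for the ligands, had values of 9.997, 9.98 and 10.03 in ShSuz12 cells, against 9.62, 9.72 and 9.49 in ShControl cells, and rose by 0.39 (standard error 0.07, adjusted p = 0.00260). The groups did not overlap for either gene. Igfbp6, which prefers Igf2 over Igf1, was the 1 gene of the system that fell, apart from Igf1 after median subtraction. Its probe set 1372168_s_at had values of 8.85, 8.86 and 8.88 in ShSuz12 cells, against 9.24, 9.16 and 9.11 in ShControl cells, and 1387625_at had 8.56, 8.52 and 8.59 in ShSuz12 cells, against 8.90, 8.77 and 8.84 in ShControl cells. Igfbp6 fell by 0.31 at the first and by 0.28 at the second (adjusted p = 0.00315 and 0.00593 from limma), with no overlap of the groups at either.

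Igfbp2, a carrier abundant in fetal tissue, was at percentile 99.8 in ShSuz12 cells and 99.7 in ShControl cells. Its values were 13.58, 13.55 and 13.61 in ShSuz12 cells, against 13.45, 13.38 and 13.40 in ShControl cells, and it rose by 0.17 (adjusted p = 0.0355 from limma). This small rise did not pass when any 1 of the 6 arrays was left out (adjusted p = 0.0518 to 0.107), after median subtraction (log2 fold change 0.07, adjusted p = 0.305) or after a second quantile normalization (adjusted p = 0.0663). Igfbp3, the main carrier in serum, had log2 fold changes of 0.08 and 0.04 at its 2 probe sets (adjusted p = 0.501 and 0.723). Its means were 4.75 ± 0.16 and 3.87 ± 0.15 in ShSuz12 cells and 4.67 ± 0.03 and 3.82 ± 0.06 in ShControl cells (SD, n = 3 each), all below percentile 30.

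**Figure D1:**
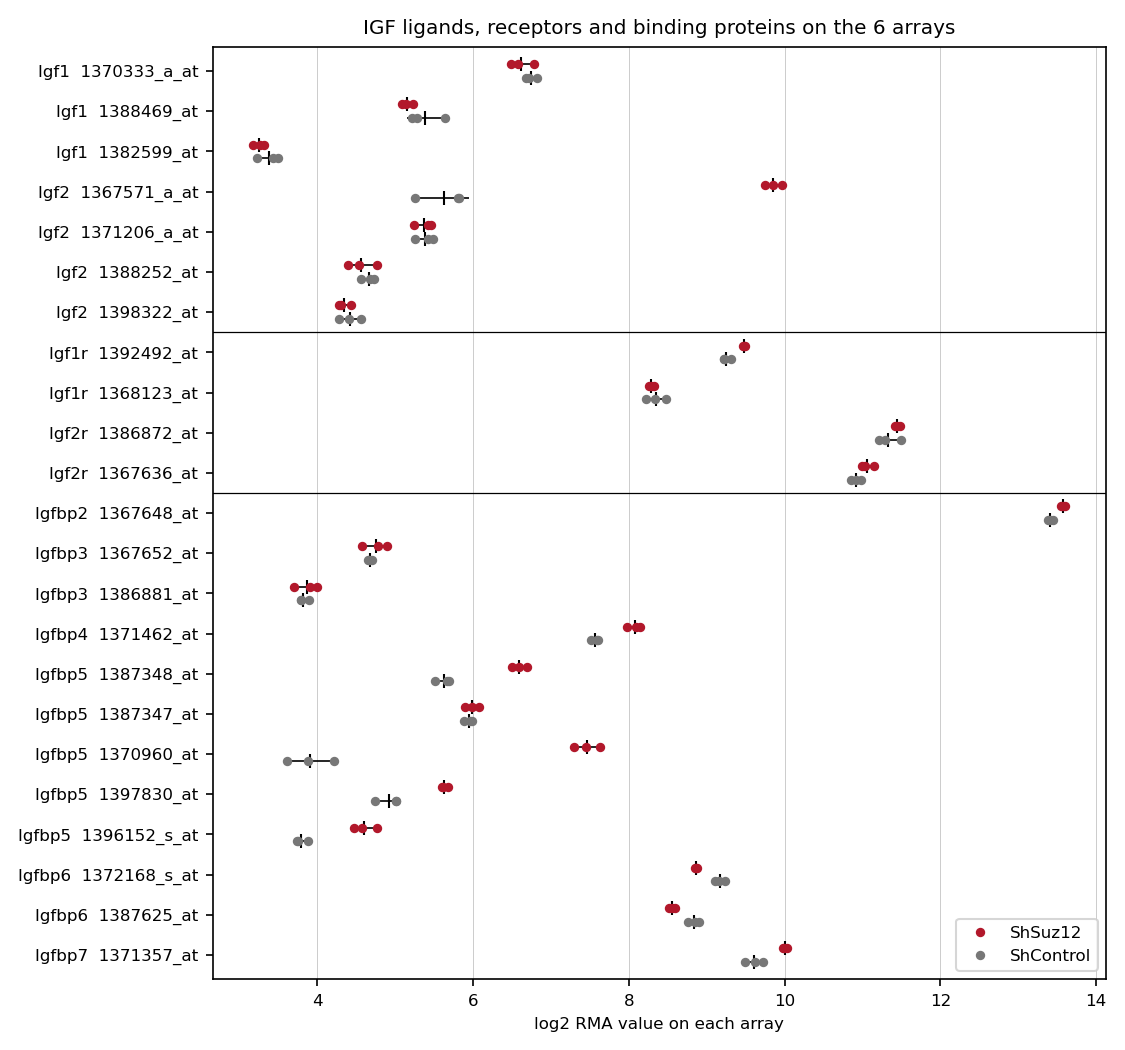
Log2 RMA value on each array (x axis) for the 23 probe sets of the 10 genes (rows; lines part ligands, receptors and binding proteins), with red points for ShSuz12 and grey points for ShControl cells and black bars for the mean and SD (n = 3). The widest gaps are at Igf2 1367571_a_at (9.75 to 9.97 in ShSuz12, 5.26 to 5.81 in ShControl) and Igfbp5 1370960_at (7.30 to 7.63 in ShSuz12, 3.62 to 4.21 in ShControl).

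No receptor probe set differed by 2-fold, so none was called. Igf1r, the signaling receptor, had values of 9.46, 9.49 and 9.47 in ShSuz12 cells at 1392492_at, against 9.31, 9.22 and 9.22 in ShControl cells. It rose there by 0.22 (standard error 0.05, adjusted p = 0.0123 from limma), and this did not pass after median subtraction (0.12, adjusted p = 0.0900). At 1368123_at its values were 8.32, 8.29 and 8.25 in ShSuz12 cells, against 8.34, 8.48 and 8.22 in ShControl cells, with overlapping groups and a log2 fold change of -0.06 (adjusted p = 0.579). Igf2r, the clearance receptor, was near the top of the array in both groups. Its values were 11.44, 11.49 and 11.42 in ShSuz12 cells at 1386872_at, against 11.29, 11.49 and 11.21 in ShControl cells, and 11.00, 11.03 and 11.15 in ShSuz12 cells at 1367636_at, against 10.91, 10.98 and 10.85 in ShControl cells. The log2 fold changes were 0.12 and 0.15 (adjusted p = 0.288 and 0.116 from limma), with 95% intervals of -0.06 to 0.30 and -0.0006 to 0.29. The first passed when ShControl replicate 2 was left out (0.20, adjusted p = 0.0396), and the second when limma was run with an intensity trend and robust variances (0.15, adjusted p = 0.0245).

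**Figure D2:**
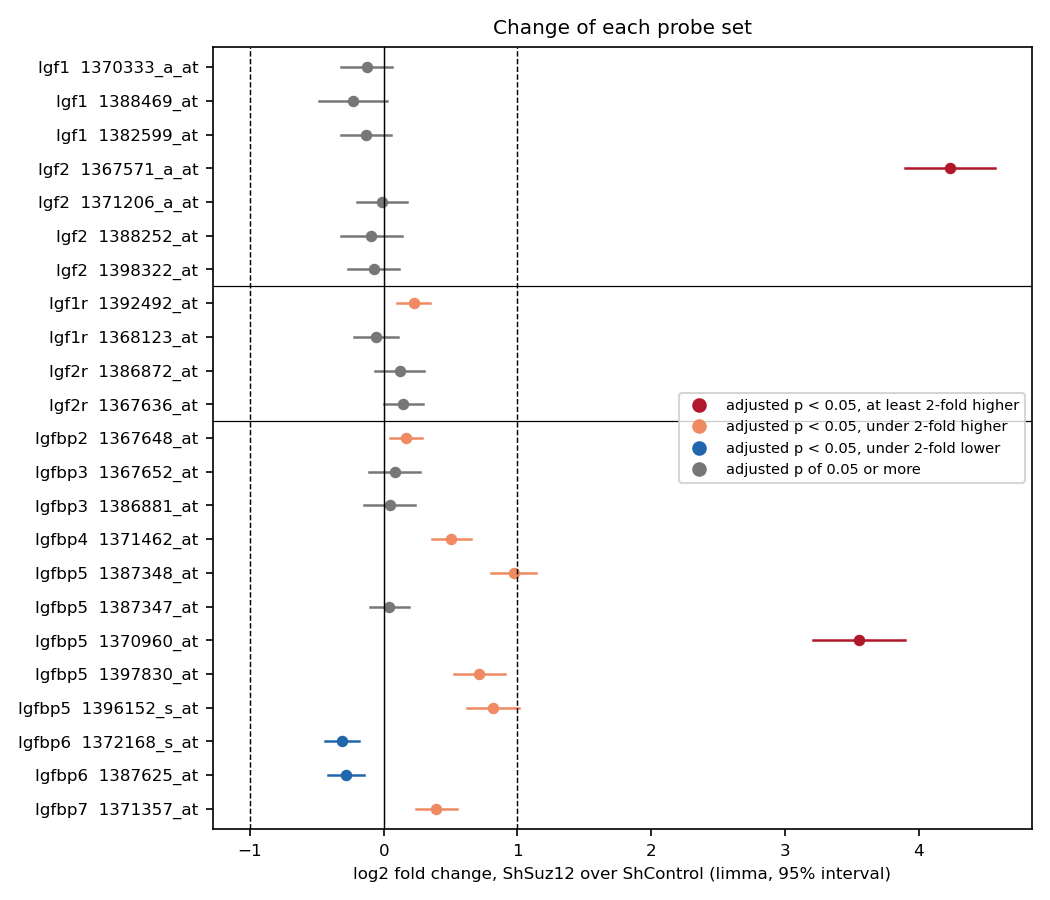
Log2 fold change of ShSuz12 over ShControl cells (x axis, point) with its 95% interval from limma (line) for the 23 probe sets (rows; solid lines part ligands, receptors and binding proteins), with dashed lines at a 2-fold difference and colours for the outcome of the test. Only Igf2 1367571_a_at (4.23) and Igfbp5 1370960_at (3.55) lie beyond 2-fold, and both Igfbp6 probe sets (-0.31 and -0.28) lie below 0.

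Over the whole system, 2 of 23 probe sets were called higher (8.70%, against 3.10% of all probe sets) and 0 were called lower (against 0.396%). In either direction the share was 3.49% of all probe sets. Without the fold limit, 9 of 23 passed as higher (39.1%, against 14.8% of all) and 2 as lower (8.70%, against 19.5% of all). No probe set of the system was lower by 2-fold, whatever its p. The groups did not overlap at 12 of 23 (52.2%), which is near the 47.5% of all probe sets. Because the genes were chosen with results known, these shares describe them and are no independent test. The median log2 fold change was 0.08 for the 23 probe sets and -0.05 for all. Of the binding protein probe sets, 7 of 12 passed as higher, 2 as lower and 3 did not pass. Of the ligand probe sets, 1 of 7 passed as higher and 6 did not pass. Of the receptor probe sets, 1 of 4 passed as higher and 3 did not. Median subtraction moved all log2 fold changes by -0.10, because the array medians were 6.26 to 6.27 in ShSuz12 and 6.15 to 6.17 in ShControl cells, and it left both calls in place. With 3 against 3 arrays, exact permutation cannot give a two-sided p below 0.1, so the calls rest on the spread that limma estimates across the array.

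Whether the probe sets of a gene changed by the same amount was tested on the difference between 2 probe sets within each array, for every pair of probe sets of every gene. Of 9597 pairs on the array, 2.54% differed between the groups at an adjusted p under 0.05 and by at least 1 on the log2 scale. Among the 23 pairs within the IGF genes, 7 did (30.4%), 3 of the 6 pairs of Igf2 and 4 of the 10 pairs of Igfbp5, and pairs that share a probe set are not independent. All 7 involved 1 of the 2 called probe sets. The genes were chosen with results known, so this share is no independent test. Igf2 1367571_a_at exceeded the other Igf2 probe sets in log2 fold change by 4.25, 4.33 and 4.31 (adjusted p = 7.94e-08, 3.29e-07 and 1.10e-06 from limma), while the other 3 differed among themselves by 0.02 to 0.08. Igfbp5 1370960_at exceeded the other Igfbp5 probe sets by 2.58 to 3.51. Among the rest of Igfbp5, 1387347_at changed less than 1387348_at, 1396152_s_at and 1397830_at, by 0.93, 0.77 and 0.67 (adjusted p = 5.21e-04, 0.00107 and 0.00588 from limma), which is under the limit of 1. The single pairs of Igf1r, Igf2r, Igfbp3 and Igfbp6 and the 3 pairs of Igf1 did not pass, with differences of 0.28 for Igf1r (adjusted p = 0.0993) and 0.01 to 0.10 for the others. The positions of the probe sets in the transcripts were not used here.

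Other genes of the pathway were taken from 6 lists, chosen with earlier results of these data known. Of the 67 genes, 60 were measured, each represented by its brightest probe set. Of these 60, 4 were higher by at least 2-fold (6.67%, against 3.82% of all genes), 3 were lower (5.00%, against 0.422% of all genes) and 53 were not called. The median log2 fold change of the 60 was 0.02, against -0.05 over all genes by their brightest probe set. Without the fold limit, 14 of 60 passed as higher (23.3%, against 17.1% of all genes) and 7 as lower (11.7%, against 23.3% of all genes). Because of how the lists were chosen, these shares describe them and are no independent test.

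Of the 3 mRNA-binding proteins that bind Igf2 transcripts, 2 were called higher (66.7%, against 3.82% of all genes) and 0 lower (against 0.422%). Igf2bp3 had log2 values of 7.98, 8.12 and 7.997 in ShSuz12 cells, against 4.89, 4.89 and 4.96 in ShControl cells, and rose by 3.12 (standard error 0.06, adjusted p = 2.26e-08 from limma), at percentile 71.9 in ShSuz12 and 33.3 in ShControl cells. It rose at its other probe sets too, by 2.20 and 1.11 (adjusted p = 2.98e-07 and 0.00212). Igf2bp2 had values of 8.06, 8.36 and 8.26 in ShSuz12 cells, against 5.67, 5.46 and 5.52 in ShControl cells, and rose by 2.68 (standard error 0.09, adjusted p = 3.81e-07). At its other probe set the log2 value differed by -0.09 (adjusted p = 0.409). Igf2bp1, the third family member, rose by 0.23 (adjusted p = 0.0461), under 2-fold. These proteins regulate the stability and translation of Igf2 and other transcripts.

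Among 11 measured carriers, proteases and protease inhibitors, 1 was higher, 0 were lower and 10 were not called. The share called higher was 9.09%, against 3.82% of all genes, and 0.422% of all genes were called lower. C1s, the complement protease that also cleaves Igfbp5 in human fibroblast culture, had values of 12.29, 12.20 and 12.22 in ShSuz12 cells, against 9.32, 9.53 and 9.51 in ShControl cells, and rose by 2.78 (standard error 0.07, adjusted p = 8.05e-08 from limma). Htra1, a secreted protease that cleaves binding proteins and the brightest gene of this list, rose by 0.19 (adjusted p = 0.0218) at percentile 99.3 in ShSuz12 and 99.1 in ShControl cells. The lysosomal protease Ctsd, chosen after its value was seen, rose by 0.71 (adjusted p = 6.91e-05). In the growth hormone axis, which drives Igf1 in liver, 0 of 6 were lower (against 0.422% of all genes). Called higher was 1 of the 6 (16.7%, against 3.82% of all genes). This was Ghr, the growth hormone receptor, which rose by 1.34 at 1 probe set and by 0.47 at the other (adjusted p = 7.56e-05 and 8.76e-04). Its levels were at percentiles 20.3 and 8.10 in ShSuz12 cells and at 0.0945 and 1.15 in ShControl cells, near the floor of the array. With both probe sets averaged, Ghr rose by 0.90 and was no longer called. Jak2, the kinase that this receptor uses, showed a log2 fold change of 0.10 (adjusted p = 0.565).

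Of 12 receptor adaptors and phosphatases, 2 were lower (16.7%, against 0.422% of all genes), 0 were higher (against 3.82%) and 10 were not called. Both lower genes, Grb10 and Grb14, encode adaptors that bind and inhibit the insulin and IGF receptors. Grb10 had values of 8.92, 8.87 and 9.01 in ShSuz12 cells, against 10.18, 10.17 and 9.93 in ShControl cells, and fell by 1.16 (standard error 0.08, adjusted p = 1.99e-05 from limma), and by 0.41 and 0.86 at its other probe sets (adjusted p = 0.00960 and 0.00261). With its 3 probe sets averaged, Grb10 fell by 0.81 and was no longer called. Grb14 had values of 8.80, 8.81 and 8.86 in ShSuz12 cells, against 9.95, 10.02 and 9.94 in ShControl cells, and fell by 1.15 (standard error 0.05, adjusted p = 2.04e-06). No overlap between the groups was seen for either gene. Crk, an SH2 domain adaptor and the brightest gene of the list, differed by 0.03 on the log2 scale (adjusted p = 0.698). Irs2 and Irs1, the substrates that link the receptor to PI3K, were chosen after their values were seen and differed by 0.08 and 0.06 on the log2 scale (adjusted p = 0.572 and 0.671).

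Of 24 PI3K, Akt, mTOR and FoxO genes, 1 was lower (4.17%, against 0.422% of all genes), 0 were higher (against 3.82%) and 23 uncalled. Deptor, an inhibitor of the mTOR kinase, had values of 8.09, 8.05 and 8.11 in ShSuz12 cells, against 9.60, 9.64 and 9.52 in ShControl cells, and fell by 1.501, and by 1.69 at its other probe set (adjusted p = 1.42e-05 from limma). Rheb, the GTPase that activates mTOR and the brightest gene of this list, showed a log2 fold change of -0.06 (adjusted p = 0.460). Among genes chosen after their values were seen, Foxo1, a transcription factor restrained by Akt, rose by 0.88 at 1 probe set and differed by 0.19 and 0.005 at the others (adjusted p = 1.97e-04, 0.109 and 0.960), and Rps6kb1, the S6 kinase, fell by 0.69 and 0.77 at its 2 probe sets (adjusted p = 8.43e-05 and 2.40e-05). None of the 4 insulin ligands and receptors differed by 2-fold or passed the test of limma. Insr, the insulin receptor, showed a log2 fold change of 0.23 (adjusted p = 0.0994). With its probe sets averaged, Insr passed under 2-fold (0.22, adjusted p = 0.0456 from limma).

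**Figure D3:**
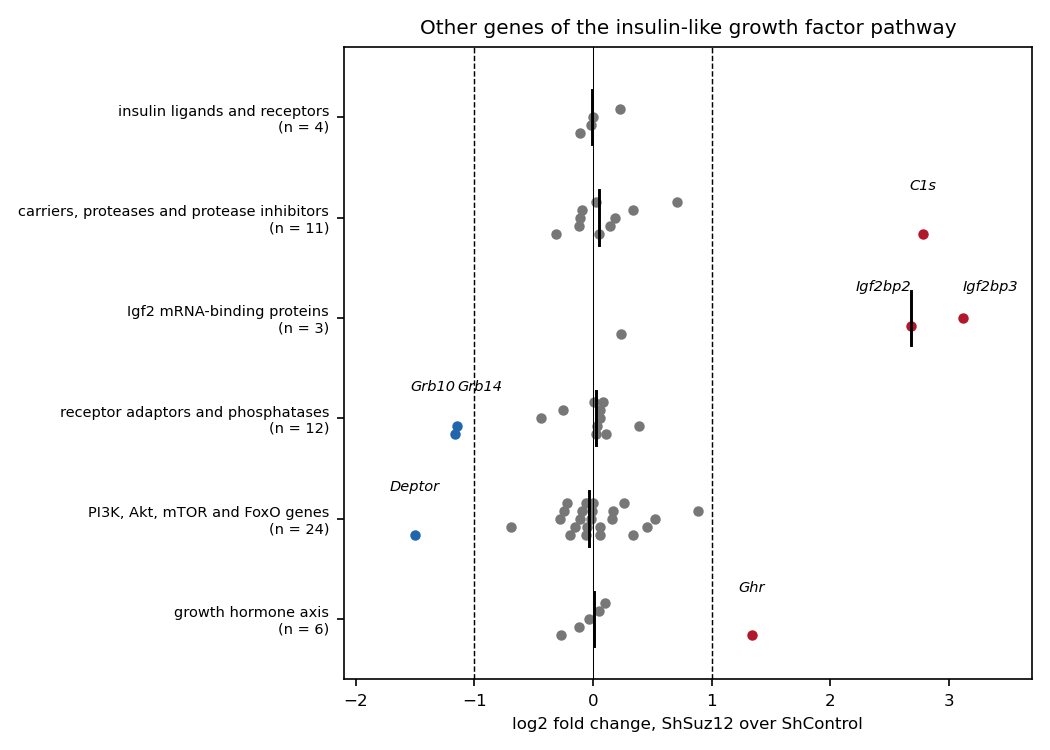
Log2 fold change of ShSuz12 over ShControl cells (x axis) for 60 genes of the IGF pathway outside the ligands, receptors and binding proteins, each by its brightest probe set, in 6 lists (rows). Red points are at least 2-fold higher and blue points at least 2-fold lower (limma, adjusted p under 0.05), grey points are not called, black bars are list medians and dashed lines mark 2-fold. The called genes are Igf2bp3 (3.12), C1s (2.78), Igf2bp2 (2.68) and Ghr (1.34) on the higher side and Deptor (-1.501), Grb10 (-1.16) and Grb14 (-1.15) on the lower side.

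The genes whose values over the 6 arrays were nearest to those of the called probe sets were found by the Euclidean distance between log2 profiles, each with its own mean subtracted. Nearest to Igf2 1367571_a_at were the homeobox factor Zfhx4 (distance 0.443, log2 fold change 4.37), the chemokine Ccl2 (0.444 and 4.16) and the matrix link protein Hapln1 (0.477 and 4.26). Nearest to Igfbp5 1370960_at were Peli2, a ubiquitin ligase (0.399 and 3.47), the matricellular protein Postn (0.401 and 3.48) and Kctd12 (0.425 and 3.46). With 2 groups of 3 arrays, this likeness is mainly a likeness in the size of the change.

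Protein-coding neighbours of the called genes in the GRCr8 gene table were examined for changes of their own. Igfbp5 lies next to Igfbp2 on chromosome 9, which rose by 0.17 as given above, and to Tnp1, a transition protein of sperm chromatin, which showed a log2 fold change of -0.03 (adjusted p = 0.709 from limma). On chromosome 1 the nearest protein-coding gene on 1 side of Igf2 was Mrpl23, a mitochondrial ribosomal protein gene, with a log2 fold change of -0.005 (adjusted p = 0.951). On its other side the nearest measured gene was Ins2, an insulin gene, with means of 4.49 ± 0.14 in ShSuz12 cells and 4.60 ± 0.15 in ShControl cells (SD, n = 3 each) and a log2 fold change of -0.11 (adjusted p = 0.440). None of these 4 neighbours differed by 2-fold. Tnp1 had means of 3.53 in ShSuz12 and 3.56 in ShControl cells. Tnp1 and Ins2 were at percentiles 6.84 and 27.8 in ShControl cells, and neither level was shown to be above background.

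IGF ligands and binding proteins are made by mesenchymal cells in many tissues, so markers of other cell types were read beside these results. Of 13 fibroblast and smooth muscle markers, 5 were called higher (Col1a2, Col3a1, Pdgfrb, Dcn and Lum; 38.5%, against 3.82% of all genes) and 0 lower. Without the fold limit 7 passed as higher (53.8%, against 17.1% of all genes) and 2 as lower (15.4%, against 23.3% of all genes). The lower ones were the smooth muscle genes Acta2 and Tagln, which fell by 0.66 and 0.35 (adjusted p = 4.22e-05 and 0.00142 from limma). The summed linear signal of this list was 41840 to 43530 in ShSuz12 cells and 29650 to 32331 in ShControl cells. Of 13 intestinal epithelial markers, 2 were called higher (Krt19 and Cdx2, or 15.4%) and 0 lower. Without the fold limit 3 passed as higher (23.1%) and 2 as lower (15.4%), against 17.1% and 23.3% of all genes. The sums of this list were 4715 to 4883 in ShSuz12 cells and 7081 to 7929 in ShControl cells. Such sums follow the brightest genes, and most of the epithelial sum was Cdh1, which fell by 0.76. The median log2 fold change of the epithelial list was 0.005. The brightest fibroblast genes in ShSuz12 cells, Vim, Col1a1 and Col3a1, had log2 fold changes of -0.06, 0.25 and 2.33. The median of the fibroblast and smooth muscle list was 0.36. Of the defining epithelial genes, Cdh1 was at percentile 98.4 in ShSuz12 and 99.3 in ShControl cells and Krt8 at 87.2 in ShSuz12 and 90.2 in ShControl cells. Epcam was at 6.55 in ShSuz12 and 5.92 in ShControl cells, and Vil1 at 25.8 in ShSuz12 and 27.6 in ShControl cells. Of the fibroblast genes, Col1a1 and Vim were above percentile 99 in both groups and Pdgfra was at 32.2 in ShSuz12 and 32.0 in ShControl cells. The 5 leukocyte and 4 endothelial markers gave no difference of 2-fold. Without the fold limit, 2 of the 5 leukocyte markers, Cd68 and Itgam, passed as lower (40%, against 23.3% of all genes). Their log2 fold changes were -0.32 and -0.25 (adjusted p = 0.0326 and 0.0371 from limma). They were at percentiles 32.9 and 31.4 in ShSuz12 cells and 38.5 and 36.2 in ShControl cells. The endothelial gene Kdr, 1 of 4 markers (25%, against 17.1% of all genes), passed as higher (0.78, adjusted p = 1.62e-04 from limma). That probe set was at percentile 30.4 in ShSuz12 and 16.1 in ShControl cells, and Kdr differed by -0.07 at its other probe set. The summed signals of the leukocyte and endothelial markers were 141 to 146 and 106 to 114 in ShSuz12 cells and 152 to 158 and 87.7 to 98.3 in ShControl cells. Ptprc and Pecam1, their defining genes, were at percentiles 10.1 and 5.74 in ShSuz12 cells and 13.6 and 6.93 in ShControl cells. The 5 collagen, proteoglycan and Pdgfrb markers were higher in the ShSuz12 population, as were the called probe sets of Igf2 and Igfbp5, while Acta2 and Tagln were lower. Pdgfrb was called at its brightest probe set and rose by 0.49 and 0.49 at its others (adjusted p = 0.00113 and 0.00478 from limma). Whether the same single cells expressed these genes was not measured, and the part of other cell types in these results was not tested.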

How the data were processed

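The authors hybridized RNA of each sample to Affymetrix rat genome arrays and deposited log2 values made with FlexArray and RMA (background correction, normalization between arrays, 1 value for each probe set). RMA compresses changes near the floor of the array.

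From 31099 rows, 57 control probe sets were left out, and 31042 were compared, ShSuz12 over ShControl, by the moderated two-sided test of limma 3.58.1 (R 4.3.3), with Benjamini-Hochberg adjustment over all of them. The number of arrays limits the precision. Symbols came from the platform annotation: 20826 probe sets had 1, 436 had several and 9780 had none. Named were all members, Suz12, called pathway genes, the brightest uncalled gene of each list, the 3 nearest profiles and the nearest measured neighbours. The members and lists were chosen with earlier results of these data known. The t-test of the study's methods was an alternative, with filters, normalizations, thresholds, a replicate block and leaving out arrays. Figures were drawn with matplotlib 3.10.9.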

Additional observations from a re-analysis of the deposited data

How the results depend on the processing

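The methods' t-test gave the same counts for members, pathway genes and pairs, with and without adjustment of p, and 954 higher and 121 lower over all probe sets with adjustment. Both called probe sets, Igf2 1367571_a_at and Igfbp5 1370960_at, kept their call under every alternative run, with log2 fold changes of 4.05 to 4.33 and 3.41 to 3.71. The filters on low values are no check of these calls, since Igfbp5 1370960_at at both filters and Igf2 1367571_a_at at the 60th percentile passed through their ShSuz12 level. With no limit on the fold change, 9 member probe sets were higher and 2 lower (39.1% and 8.70%, against 14.8% and 19.5% of all). At that setting 14 pathway genes were higher and 7 lower (23.3% and 11.7%, against 17.1% and 23.3% of all genes). At 1.5-fold, 5 of 23 member probe sets were higher and 0 lower, against 6.28% and 2.35% of all probe sets. Above the 40th percentile 16 member probe sets and 10 of their pairs were left, with 4 pairs that differed, and above the 60th percentile 11 probe sets and 3 pairs, with 0 that differed, since probe sets below the limit were no longer tested. Leaving out 1 array gave 2 to 3 member probe sets higher and 0 lower, 4 pathway genes higher and 3 lower, and 7 to 8 pairs that differed. With the replicate block, 2 member probe sets were higher and 0 lower, 4 pathway genes were higher and 3 lower, and 7 pairs differed, as without it. Same-numbered samples showed no shared deviation (correlation -0.06 to 0.02), which cannot tell whether they came from 1 experiment, and the labels do not say. The block ended the pass of Igfbp2 (adjusted p = 0.0824 from limma). Of 303 single values of member probe sets under the alternatives, 288 stayed on their side of the threshold, 10 no longer passed (9 of them Igfbp2), 5 newly passed and 0 reversed a passed direction. Averaging the probe sets of each gene left 3 pathway genes higher and 2 lower, without Ghr (0.90) and Grb10 (-0.81). Above the 40th and the 60th percentile 3 pathway genes were higher and 3 lower, since Ghr was not tested there. The filters are also no check of Igf2bp3, at percentile 33.3 in ShControl and 71.9 in ShSuz12 cells. The filter at the 60th is none of Igf2bp2, at 42.4 in ShControl and 74.4 in ShSuz12 cells. These genes passed there through their ShSuz12 level. Median subtraction changed the calls over all probe sets from 961 higher and 123 lower to 839 higher and 194 lower. The array medians differed by 0.10 between the groups, and changes of that size depend on the scaling.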
